A study of Homo sapiens with 4 samples.

Results

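Expression of 10 genes of metallothionein biology was examined in MeTA-inducible prostate cancer cells: the metallothionein genes MT1E, MT1F, MT1G, MT1H, MT1M, MT1X, MT2A and MT3, the metal-sensing transcription factor MTF1, and the zinc exporter gene SLC30A1. They were chosen by name, through the RefSeq transcripts paired with the array's probes, and had 12 probes of 34127 on the array, out of 19483 genes with a probe. MT1H and MT1X had 2 probes each and the other genes 1. Metallothionein genes are near-identical in their coding sequence, so a probe of one may bind transcripts of another, and the value of each gene is uncertain to that degree.

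Total RNA came from TR9-MeTA14 and TR15-MeTA5 cells, kept either untreated (-Tet) or under tetracycline for 4 days (+Tet), and 1 array was hybridized per condition, 4 arrays in all. Both lines descend from LNCaP, a human prostate cancer line of luminal character. All 4 groups carry a stably integrated Tet repressor and a stably integrated tetracycline-regulated NFκB (AD)-MBD gene, which joins the activation domain of NFκB to a methyl-CpG binding domain and so brings an activator to methylated DNA. The comparison asks which genes differ when this protein is induced. TR9 and TR15 are separate Tet repressor lines, each carried forward as 1 stable MeTA line, and cells given tetracycline without the NFκB (AD)-MBD gene were not analysed here, so tetracycline itself and the induced protein cannot be told apart.

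Metallothioneins are small cysteine-rich proteins that bind zinc and copper, and cadmium when cells meet it. Zinc activates MTF1, which binds metal response elements in the promoters of metallothionein genes and of SLC30A1, whose protein moves zinc out of the cell. MT2A and MT1X are expressed in most tissues, MT3 is best known from brain, and MT1G and MT1M are known as genes that are silenced with promoter methylation in several cancers. In prostate, which holds more zinc than most tissues, a loss of zinc is a known feature of tumours.

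Of the 10 genes, 5 had a promoter in the RefSeq table used here (GRCh38.p14). The 250 bases before the start of MT2A, MT1X, MT1H and SLC30A1 are shown because they hold matches to the core of the metal response element. Capitals mark these matches, called cores below, searched on both strands as TGCACNC and TGCGCNC, and no core overlapped another. Whether MTF1 binds them was not tested.
MT2A promoter, chr16:56608334-56608583, plus strand: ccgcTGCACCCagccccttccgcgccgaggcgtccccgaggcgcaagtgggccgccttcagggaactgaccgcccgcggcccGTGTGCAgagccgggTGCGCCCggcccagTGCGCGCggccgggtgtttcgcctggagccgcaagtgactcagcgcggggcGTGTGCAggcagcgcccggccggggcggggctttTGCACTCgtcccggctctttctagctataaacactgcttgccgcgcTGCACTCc
MT1X promoter, chr16:56682220-56682469, plus strand: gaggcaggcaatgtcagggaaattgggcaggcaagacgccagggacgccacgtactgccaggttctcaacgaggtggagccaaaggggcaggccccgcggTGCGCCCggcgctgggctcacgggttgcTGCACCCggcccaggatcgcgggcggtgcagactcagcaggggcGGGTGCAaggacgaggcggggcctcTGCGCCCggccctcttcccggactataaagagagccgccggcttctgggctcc
MT1H promoter, chr16:56669564-56669813, plus strand: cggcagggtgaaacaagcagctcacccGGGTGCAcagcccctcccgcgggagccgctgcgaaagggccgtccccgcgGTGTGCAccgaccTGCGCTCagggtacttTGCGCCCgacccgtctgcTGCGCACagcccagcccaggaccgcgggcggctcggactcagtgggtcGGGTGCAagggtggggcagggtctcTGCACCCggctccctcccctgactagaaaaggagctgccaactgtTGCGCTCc
SLC30A1 promoter, chr1:211579162-211579411, minus strand: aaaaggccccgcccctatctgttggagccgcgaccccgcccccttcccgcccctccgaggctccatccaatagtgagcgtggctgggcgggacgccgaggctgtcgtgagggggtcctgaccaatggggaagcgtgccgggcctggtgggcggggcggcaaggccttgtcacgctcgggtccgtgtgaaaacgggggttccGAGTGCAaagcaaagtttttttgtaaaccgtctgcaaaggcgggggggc
Cores numbered 7 in MT2A, 4 in MT1X, 8 in MT1H and 1 in SLC30A1. The promoter of MTF1 itself held 0. Among 35116 promoters of the same length, 9.87% held TGCACNC, 16.8% TGCGCNC, and 24.8% at least 1 core of either kind. At least 4 cores were found in 0.370% of them and at least 6 in 0.0513%. CpG dinucleotides, the sites at which DNA is methylated, numbered 32 in MT2A, 22 each in MT1X, MT1H and SLC30A1 and 20 in MTF1, against a median of 11 over all promoters. Methylation of these promoters was not analysed here. Promoters of MT1E, MT1F, MT1G, MT1M and MT3 were not used.

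The signal of each probe is given below as the processed intensity of Agilent Feature Extraction. Fold changes were taken after dividing by the 75th percentile of each array, which was 1.26 times higher with tetracycline in TR9-MeTA14 and 1.48 times higher in TR15-MeTA5, so a probe whose intensity was equal on both arrays counts as lower with tetracycline. Between 20560 and 24217 probes were well above background per array, and no spot was saturated. The SD of a log2 ratio, from probes spotted 10 times, was 0.0873, which covers the error within an array and not the spread between cultures. With 1 array per condition there is no test within a line. All 7 LNCaP markers examined (KLK3, KLK2, FOLH1, TMPRSS2, HOXB13, KRT8 and KRT18) were well above background on every array, and none of 3 basal prostate markers (KRT5, KRT14 and TP63) was on any. The summed scaled signal of the LNCaP markers was 459.9 and 170.2 in TR9-MeTA14 without and with tetracycline and 622 and 392 in TR15-MeTA5. At least 2-fold lower were 4 of 7 in TR9-MeTA14 and 0 of 7 in TR15-MeTA5, against 15.1% and 2.21% of all genes. Among leukocyte markers, each by its brightest probe, 3 of 3 were well above background on all arrays but TR15-MeTA5 +Tet, where CD3E was not. On the other arrays CD3E was at only 24.0, 40.1 and 41.2 in intensity. The dimmer PTPRC probes were not well above background on any array except TR9-MeTA14 +Tet. The summed scaled signal of the leukocyte markers was 0.309 and 1.32 in TR9-MeTA14 and 0.553 and 0.926 in TR15-MeTA5. CD14 moved with tetracycline, 3.27 and 2.25 higher on the log2 scale. Of 3 fibroblast markers, COL1A1 alone was above background, and COL1A2 and DCN were not on any array. The endothelial marker CDH5 was above background on every array. PECAM1 was so on the +Tet arrays by its brightest probe alone, at 18.0 and 22.5 in intensity. The part of these shifts in the metallothionein values was not tested.

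MT1M was the 1 gene of the 10 at least 2-fold higher with tetracycline in both lines, and the 1 that limma called. Its intensity was 3.72 in TR9-MeTA14 -Tet and 674 in TR9-MeTA14 +Tet, and 3.67 in TR15-MeTA5 -Tet and 1154 in TR15-MeTA5 +Tet. Both -Tet values were not well above background, whereas both +Tet values were, so the groups stood wholly apart. MT1M was thus at least 34.6-fold higher in TR9-MeTA14 and at least 50.6-fold higher in TR15-MeTA5, set against the lowest intensity that counted as above background (15.5 and 15.4 on the -Tet arrays). These bounds belong to this processing. On the log2 scale they were 5.11 and 5.66 here, and 2.77 and 3.92 after normexp and quantile normalization. In a limma fit over both lines, with the line as a block, the adjusted p was 0.0139 over 22808 probes, and from 0.000680 to 0.0179 over the alternatives that kept the probe. The probe passed the filter of this fit through the +Tet arrays alone. Its p therefore rests on -Tet intensities under the background limit and is no separate support for the change. The size that limma fitted is no bound, because it uses -Tet intensities under the background limit: it was 7.45 on the log2 scale here and 3.89 after normexp background correction. MT1M probes on the -Tet arrays were the only measurements of the 12 probes that were not well above background. Bulk RNA does not tell more cells with a transcript from more transcript per cell.

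**Figure D1:**
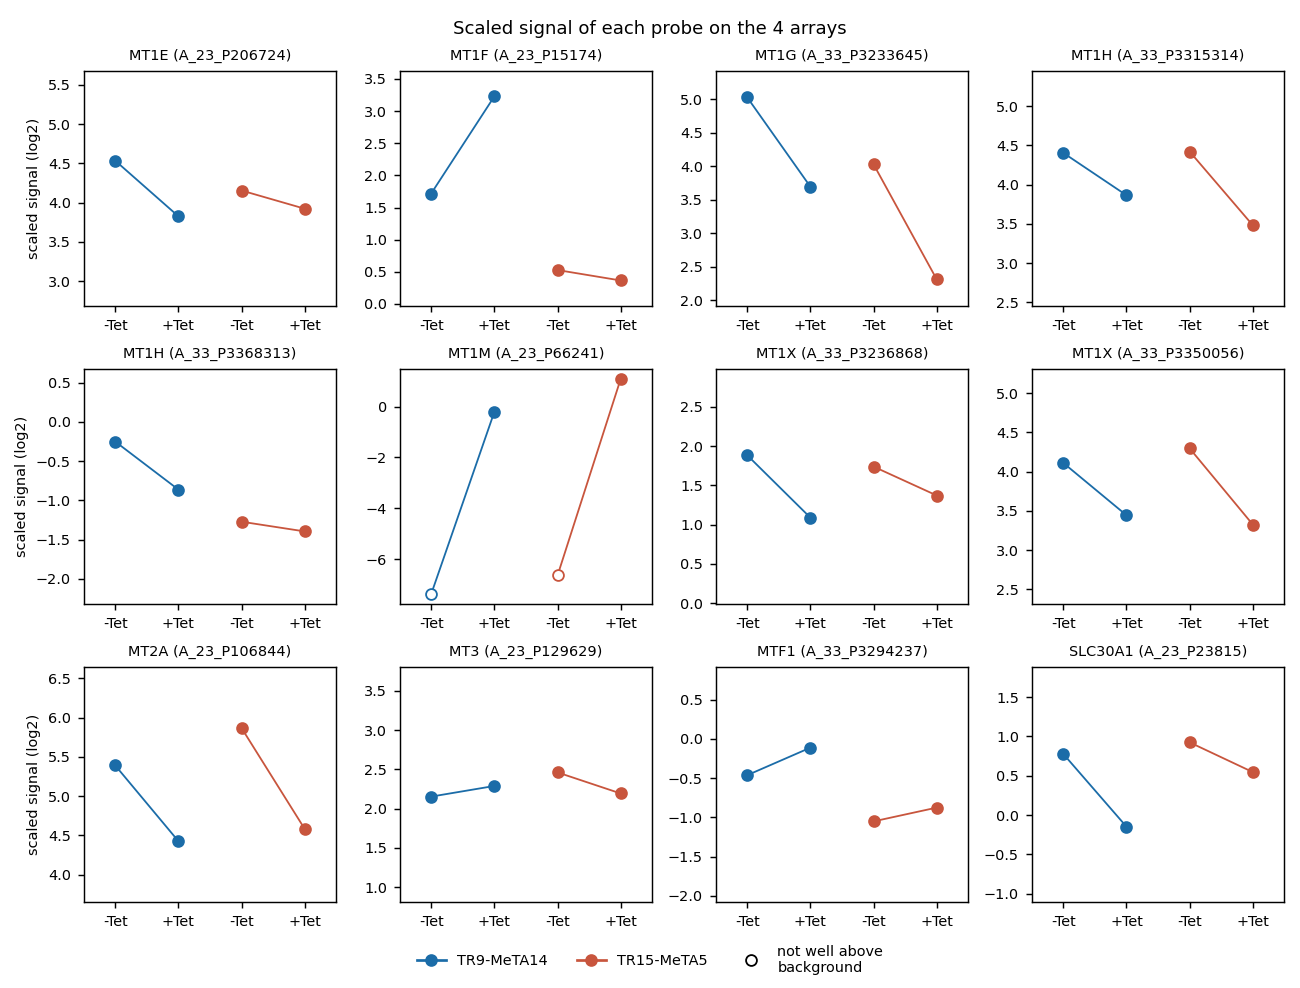
Scaled log2 signal (log2 processed intensity minus the log2 of the array's 75th percentile, vertical axis) of the 12 probes of the 10 genes on the 4 arrays, 1 point per array, with a line joining the arrays of one cell line; the vertical axis differs between panels. Open circles are values not well above background: MT1M is at 3.72 and 3.67 in intensity on the -Tet arrays and at 674 and 1154 on the +Tet arrays, and MT1G is lower with tetracycline in both lines.

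No other gene of the 10 was at least 2-fold higher in both lines. With a cut-off of 2-fold, 2 of the 10 genes were higher in TR9-MeTA14 with tetracycline (MT1M and MT1F) and 1 was lower (MT1G), where 16.8% of all genes were higher and 15.1% lower. In TR15-MeTA5, 1 gene was higher (MT1M) and 2 were lower (MT1G and MT2A), where 9.78% of all genes were higher and 2.21% lower. Past the cut-off in both lines were MT1M, higher, as were 8.21% of all genes, and MT1G, lower, as were 0.838%. The median log2 change of the 10 genes was -0.60 in TR9-MeTA14 and -0.32 in TR15-MeTA5, against -0.06 and -0.16 over all genes. Both comparisons rest on 10 genes and 1 array per condition.

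MT1G was lower with tetracycline in both lines. Intensities were 20124 and 10040 in TR9-MeTA14 -Tet and +Tet, and 5977 and 2684 in TR15-MeTA5 -Tet and +Tet. The +Tet array was below the -Tet array of its own line, while TR9-MeTA14 +Tet lay above TR15-MeTA5 -Tet in intensity and below it after scaling. The fold was 2.52 lower in TR9-MeTA14 and 3.29 lower in TR15-MeTA5, and in TR15-MeTA5, 61 of 14337 genes had a lower value, with bounds counted at their value. Over both lines limma gave -1.53 ± 0.272 (SE) on the log2 scale, with an unadjusted p of 0.00407 and an adjusted p of 0.0862, which missed the threshold of 0.05. Over the alternatives the adjusted p of MT1G ran from 0.0390, without a filter on dim probes, to 0.413, without the line as a block, and the first of these alone was below the threshold.

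MT2A, the metallothionein most widely expressed across human tissues, had intensities of 25929 and 16727 in TR9-MeTA14 -Tet and +Tet and of 21429 and 13001 in TR15-MeTA5 -Tet and +Tet. The +Tet values were below both -Tet values. It was 1.95-fold lower in TR9-MeTA14, just inside the cut-off, and 2.44-fold lower in TR15-MeTA5, where 140 genes had a lower value. With spike-in scaling MT2A was inside the cut-off in TR15-MeTA5 too (-0.88 on the log2 scale). limma gave -1.12 ± 0.277 (SE), with an unadjusted p of 0.0134 and an adjusted p of 0.166.

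MT1X, like MT2A a broadly expressed metal-inducible gene, had its brighter probe at 10666 and 8458 in TR9-MeTA14 -Tet and +Tet and at 7205 and 5436 in TR15-MeTA5 -Tet and +Tet. That probe was 1.59-fold lower in TR9-MeTA14 and 1.96-fold lower in TR15-MeTA5. The second MT1X probe was at 2275, 1650, 1222 and 1401 on the same arrays in that order, a difference of -0.80 and -0.37 on the log2 scale. After scaling, both MT1X probes were lower with tetracycline in both lines, but the line with the larger difference was not the same one. The brighter probe had an unadjusted p of 0.0340 and an adjusted p of 0.236 in limma.

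MT1H, another metal-inducible gene of the MT1 group, had its brighter probe at 13077 and 11320 in TR9-MeTA14 -Tet and +Tet and at 7859 and 6061 in TR15-MeTA5 -Tet and +Tet. The scaled differences were -0.54 and -0.94 on the log2 scale, and the adjusted p in limma was 0.257. Its second probe, at 519, 427, 152 and 206, differed by -0.61 and by -0.12, the latter under 2 technical SDs (0.175).

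MT1E had intensities of 14294 and 11008 in TR9-MeTA14 -Tet and +Tet and of 6521 and 8211 in TR15-MeTA5 -Tet and +Tet. The TR15-MeTA5 intensity was higher with tetracycline before scaling and lower after it. The scaled fold was 1.63 lower in TR9-MeTA14 and 1.17 lower in TR15-MeTA5, the second with the opposite sign (0.17 on the log2 scale) when arrays were scaled on spike-in probes. In limma the adjusted p was 0.395.

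MT1F, a further metal-inducible gene of the MT1 group, was past 2-fold in TR9-MeTA14 alone. It was at 2029 and 7281 in TR9-MeTA14 -Tet and +Tet, and at 528 and 698 in TR15-MeTA5 -Tet and +Tet. The TR9-MeTA14 +Tet array stood above the other 3, and both TR9-MeTA14 arrays lay above both TR15-MeTA5 arrays. This was 2.85-fold higher with tetracycline in TR9-MeTA14, where 1716 of 15075 genes had a larger change. In TR15-MeTA5 the change was -0.16 on the log2 scale, under 2 technical SDs, and 0.24 with spike-in scaling. The difference between the lines has no test here, because a term for it would use up the 4 arrays, and limma over both lines gave 0.67 ± 0.475 (SE) with an adjusted p of 0.461.

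MT3, known from the brain as a growth inhibitory factor, had intensities of 2747 and 3797 in TR9-MeTA14 -Tet and +Tet and of 2020 and 2480 in TR15-MeTA5 -Tet and +Tet. The scaled changes were 0.14 and -0.27 on the log2 scale, the second 0.13 with spike-in scaling. Ordered by scaled level, each of its 4 arrays lay within 2 technical SDs of the next. The adjusted p in limma was 0.906.

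Neither MTF1 nor SLC30A1 passed 2-fold in either line. MTF1 was at 447 and 718 in TR9-MeTA14 -Tet and +Tet and at 177 and 295 in TR15-MeTA5 -Tet and +Tet. After scaling it was 1.28-fold higher in TR9-MeTA14 and 1.13-fold higher in TR15-MeTA5, with an adjusted p of 0.592 in limma. SLC30A1 was at 1058 and 701 in TR9-MeTA14 -Tet and +Tet and at 696 and 792 in TR15-MeTA5 -Tet and +Tet. It was 1.90-fold lower in TR9-MeTA14 and 1.30-fold lower in TR15-MeTA5, with an adjusted p of 0.285, and the TR15-MeTA5 difference was 0.02 on the log2 scale with spike-in scaling.

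Across the 12 probes, limma called 1 higher at an adjusted p below 0.05 (the MT1M probe) and 0 lower, where 2.6% of the 22808 probes tested were higher and 0.0132% lower. At an unadjusted p below 0.05, 1 was higher and 3 were lower (MT1G, MT2A and the brighter MT1X probe). In either direction, 19.5% of all probes had such a p. By the brightest probe of each gene, 1903 of 14458 genes tested were higher at such a p and 1204 were lower. The fit had 1 residual degree of freedom and took the 2 lines as replicates. The MT1M probe entered it through the +Tet arrays alone. In 10 of the 12 probes the direction was the same in both lines, the exceptions being those of MT1F and MT3. The share of all probes with the same direction was not counted, so this count is not a result about these genes. It also depends on the scaling. With spike-in scaling MT1F and MT3 were higher in both lines, while MT1E and SLC30A1 had opposite signs.

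All 8 metallothionein genes lie in a cluster on chromosome 16, in the order MT3, MT2A, MT1E, MT1M, MT1F, MT1G, MT1H and MT1X, with further metallothionein genes and pseudogenes between them. MTF1 and SLC30A1 lie on chromosome 1. The genes on either side of MT1M in the cluster with a probe, MT1E and MT1A, were lower after scaling in both lines. On the log2 scale they were lower by 0.71 and 0.23 for MT1E and by 1.31 and 0.71 for MT1A. With spike-in scaling the TR15-MeTA5 value of MT1E was 0.17. Of 11 other metallothionein genes listed, 6 had a probe. MT1A was at 32892 and 16733 in TR9-MeTA14 -Tet and +Tet and at 20994 and 19012 in TR15-MeTA5 -Tet and +Tet, 2.47-fold and 1.63-fold lower. MT1B differed by -0.89 and -1.08 and MT1L by -0.89 and -0.95 on the log2 scale in TR9-MeTA14 and TR15-MeTA5. Thus MT1A in TR9-MeTA14 and MT1B in TR15-MeTA5 passed 2-fold, and MT1L in neither.

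The pseudogene MT1DP differed by -0.24 in TR9-MeTA14 and was 2.53-fold lower in TR15-MeTA5. There its intensities were 37.9 and 22.1, and the +Tet value was not well above background, so the fold is uncertain and no minimum. MT1IP differed by 0.47 and -0.02. MT4, a metallothionein of stratified epithelium, was not well above background on any array. The median of the 5 genes with a value was -0.89 in TR9-MeTA14 and -0.95 in TR15-MeTA5. None of the 5 was called by limma. In that fit 3 had an unadjusted p below 0.05, all lower (MT1A, MT1B and MT1L), as were 1204 of 14458 genes tested. The probes of these 3 may bind transcripts of other metallothionein genes, so they may not be separate observations.

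**Figure D2:**
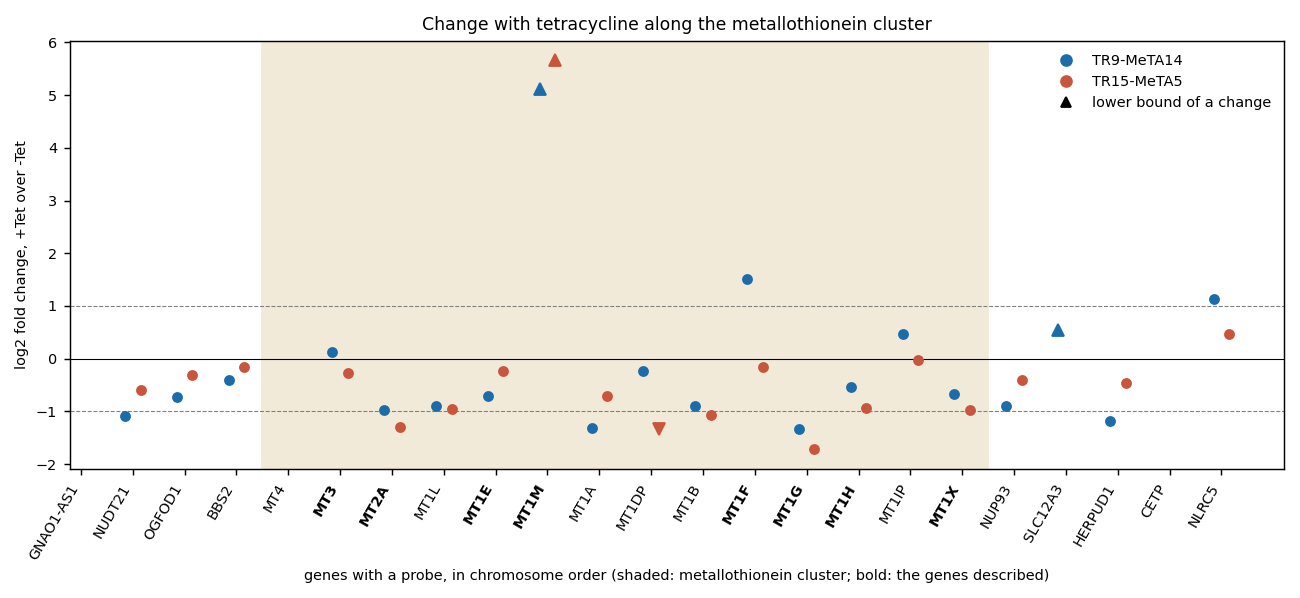
Log2 fold change with tetracycline over without it (vertical axis) of the genes of the metallothionein cluster (shaded) and of 9 neighbouring genes, for TR9-MeTA14 and TR15-MeTA5. Genes are in chromosome order with no distances drawn, and dashed lines mark 2-fold. Triangles are bounds, except that of MT1DP in TR15-MeTA5, whose fold is uncertain and no minimum. Genes without a point were below background. MT1M stands at bounds of 5.11 and 5.66, while the genes beside it lie below 0 in both lines with the scaling drawn. With spike-in scaling the TR15-MeTA5 value of MT1E was 0.17.

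Of 9 genes that flank the cluster, 7 had a value in TR9-MeTA14 and 6 in TR15-MeTA5. GNAO1-AS1 and CETP were not well above background, and SLC12A3 had a lower bound of 0.54 on the log2 scale in TR9-MeTA14 alone. Log2 changes in TR9-MeTA14 and TR15-MeTA5 were -1.08 and -0.60 for NUDT21, -0.73 and -0.31 for OGFOD1 and -0.41 and -0.16 for BBS2. On the far side they were -0.90 and -0.41 for NUP93 and -1.18 and -0.47 for HERPUD1, which encodes a protein of the endoplasmic reticulum. NLRC5, an activator of MHC class I genes, differed by 1.13 and 0.47 by its brighter probe, while the dimmer probe was lower in TR9-MeTA14. Medians of the flanking genes were -0.73 and -0.36. limma called 0 of the 6 tested, with 1 lower at an unadjusted p below 0.05, as were 1204 of 14458 genes tested.

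The lines also differed without tetracycline. Of the 9 genes with a value (MT1M was below background in both), 0 were at least 2-fold higher in TR15-MeTA5 than in TR9-MeTA14 and 2 were lower, where 8.17% of all genes were higher and 5.19% lower. MT1F was 2.28-fold lower in TR15-MeTA5, and MT1G was lower by an amount that lay exactly at the edge of the cut-off. The log2 differences of the remaining genes ran from -0.59 (MTF1) to 0.48 (MT2A), with a median over the 9 of 0.02 against 0.12 over all genes. With spike-in scaling the median of all genes was -0.96, and MT2A differed by -0.61. The MT1H probes disagreed: the brighter differed by 0.02 and the dimmer by -1.02. These differences use the same -Tet arrays as the tetracycline comparisons.

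Other genes of zinc handling included a pair that rose with tetracycline. SLC30A2 and SLC30A3 encode transporters that load zinc into vesicles. SLC30A3 was at 615 and 7104 in TR9-MeTA14 -Tet and +Tet and at 231 and 3035 in TR15-MeTA5 -Tet and +Tet, 9.17-fold and 8.87-fold higher (adjusted p in limma 0.0183). SLC30A2 was at 24.1 and 334 in TR9-MeTA14 and at 20.2 and 268 in TR15-MeTA5, 3.46 and 3.16 higher on the log2 scale (adjusted p in limma 0.0239). Both +Tet arrays lay above both -Tet arrays for each of these genes. Of the 7 zinc exporter genes other than SLC30A1 with a value in TR9-MeTA14, 2 were at least 2-fold higher and 1 was lower (SLC30A4). Of the 8 in TR15-MeTA5, 2 were higher and 1 was lower, the latter by a bound against a +Tet value below background (SLC30A10). Over all genes, 16.8% were higher and 15.1% lower in TR9-MeTA14, and 9.78% were higher and 2.21% lower in TR15-MeTA5.

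Zinc importers bring zinc into the cytosol. Of 14 genes, 13 were measured. In TR9-MeTA14, 1 was at least 2-fold higher (SLC39A4) and 4 were lower, against 16.8% and 15.1% of all genes. In TR15-MeTA5, 0 were higher and 2 lower, against 9.78% and 2.21% of all genes. limma called none, and 4 were lower at an unadjusted p below 0.05, as were 1204 of 14458 genes tested. SLC39A8, which imports zinc and manganese, was past 2-fold in both lines, at 6281 and 2930 in TR9-MeTA14 and at 365 and 269 in TR15-MeTA5 (2.70-fold and 2.01-fold lower, adjusted p in limma 0.135). The TR15-MeTA5 change lay at the edge of the cut-off, and the dimmer SLC39A8 probe had no value in that line. The level of SLC39A8 without tetracycline was 10.2-fold lower in TR15-MeTA5 by its brighter probe. Of 12 copper and iron genes, 1 was higher and 3 were lower in TR9-MeTA14, and none passed 2-fold in TR15-MeTA5. The shares of all genes are those given for the importers. limma called none, with 2 higher at an unadjusted p below 0.05, as were 1903 of 14458 genes tested. The SLC40A1 probe, 1 of the 2, entered the fit through the +Tet arrays alone. Its p therefore rests on -Tet values under the background limit.

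Genes of the metal and oxidant stress response, to which metallothioneins belong, included some higher and some lower with tetracycline. Of 11 with a probe, 2 were at least 2-fold higher and 2 lower in TR9-MeTA14, against 16.8% and 15.1% of all genes. In TR15-MeTA5, 2 were higher and 1 lower, against 9.78% and 2.21%. These counts are not read as a result about the list. HSPA1A, a heat shock protein gene induced by metals and heat, lay under the background limit on both -Tet arrays. With tetracycline HSPA1A was at 27731 and 7185, at least 1424-fold and at least 315-fold higher. Like those of MT1M, these bounds belong to this processing. The adjusted p of HSPA1A in limma was 0.0139. That p rests on the -Tet values under the limit, because the probe entered the fit through the +Tet arrays alone. The HSPA1A probe may also bind near-identical copies. SLC7A11, the cystine transporter gene, was lower, at 3685 and 137 in TR9-MeTA14 and at 414 and 243 in TR15-MeTA5, or 33.8-fold and 2.52-fold (adjusted p 0.215). HMOX1, the haem oxygenase gene, differed by -0.02 in TR9-MeTA14 and 1.75 in TR15-MeTA5 on the log2 scale. limma called 1 of the 11 higher and 0 lower, with 2 in each direction at an unadjusted p below 0.05. Of 14458 genes tested it called 466 higher and 2 lower, with 1903 higher and 1204 lower at an unadjusted p below 0.05.

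**Figure D3:**
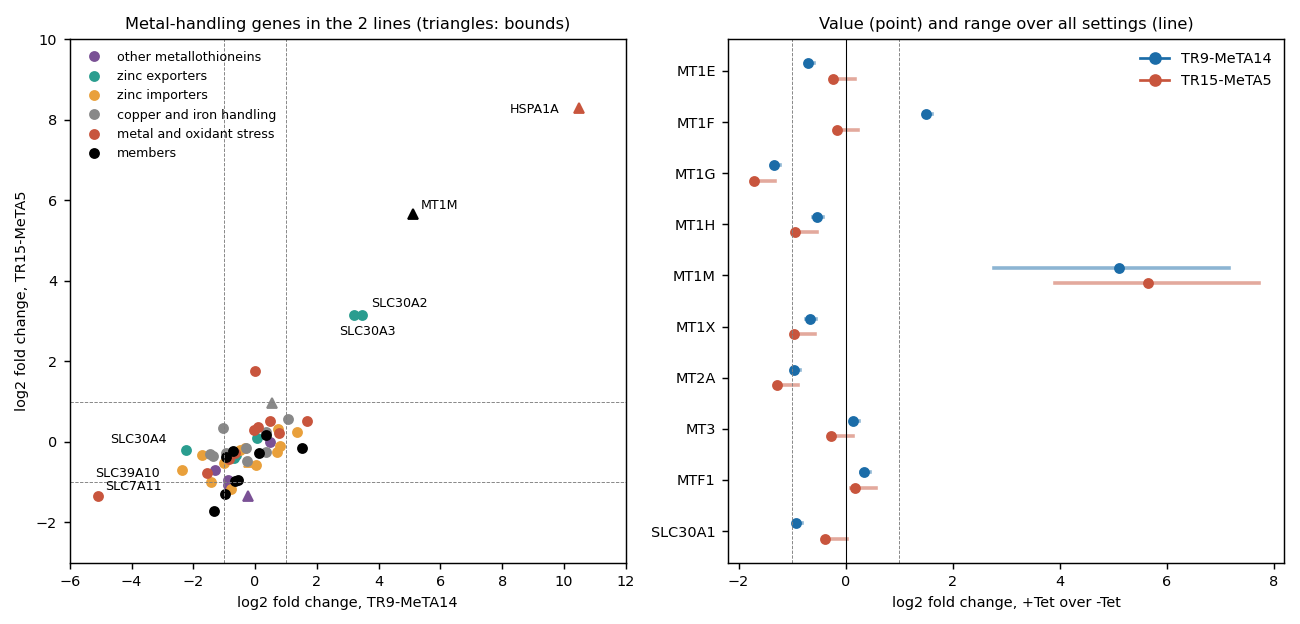
Left, log2 fold change with tetracycline in TR9-MeTA14 (horizontal axis) against TR15-MeTA5 (vertical axis) for the 10 genes (members, black) and the other lists of metal-handling genes, 1 point per gene. Triangles mark genes whose dimmer array was not well above background in at least 1 line. Not all triangles are minima, as for MT1DP in TR15-MeTA5. Dashed lines are at 2-fold, and MT1M, SLC30A2, SLC30A3 and HSPA1A lie far to the upper right. Right, the value of each gene (point) and its range over the alternative ways of processing (line), on the same log2 scale; MT1M points are lower bounds and its range, from 2.77 to 7.17 in TR9-MeTA14 and from 3.92 to 7.73 in TR15-MeTA5, includes plain ratios.

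The median profile of the 7 metallothionein genes above background on all 4 arrays, centred on its mean, was 0.34, -0.16, 0.28 and -0.47 on the log2 scale for TR9-MeTA14 -Tet, TR9-MeTA14 +Tet, TR15-MeTA5 -Tet and TR15-MeTA5 +Tet. The -Tet arrays were thus high and the +Tet arrays low in each line. Nearest to it among 12681 genes by Euclidean distance over the 4 arrays were ZNF23 (0.0763), PPP3CA (0.0863) and ATP8B5P (0.0875), and 1614 genes lay within 0.5, so this shape was common. Of the other metallothionein genes, MT1L ranked 598 and MT1B 639 in likeness, whereas MT1A ranked 5429 and MT1IP 6115.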

How the data were processed

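Agilent whole human genome arrays were hybridized with Cy3-labeled cRNA, 1 array for each of 4 conditions, all on 1 slide, which therefore holds every group. The authors deposited the intensity of every spot from Agilent Feature Extraction (10.7.3.1 per the file headers, 9.5.1 per the submitters' processing notes); the processed signal is background-subtracted and carries no normalization between arrays. The series' value table, also deposited, was identical to it. Samples were grouped by their titles.

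Outlier spots (255 to 344 per array) were left out, spots of a probe averaged on the log2 scale, and the 75th percentile over 34127 non-control probes subtracted. Probes were named through RefSeq transcripts (GRCh38.p14 table; 74.5% paired with 1 gene; array annotated on hg19, so gene order only is used). The brightest probe stood for a gene. A fold needed the brighter array well above background and is marked as a bound where the dimmer was not. The dimmer was then set to the larger of its own value and the lowest value above background on its array. limma 3.58.1 in R 4.3.3 (line as block, intensity trend, Benjamini-Hochberg over the probes that at least 2 arrays measured well above background) was tested on simulated data. Nothing says that the arrays came from separate cultures, so p-values measure the spread between these arrays only. Python 3.11.15 was used otherwise.

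The 10 genes, the gene lists and the tests were chosen with earlier results of these data known. Named were all 10 genes, all other metallothioneins and cluster neighbours with a probe, list genes past 2-fold in both lines, markers, and the 3 nearest profiles, except results not reported here; SLC30A4, SLC30A10, SLC39A4 and HMOX1 were named after their values were seen. Alternatives were quantile normalization, median and spike-in scaling, the percentile over spots, normexp (offset 50, on median pixel intensity), the series table, all spots kept, other filters, plain ratios, thresholds of 1.5-fold and 3-fold, a gene's mean over its probes, no block and no trend.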

Additional observations from a re-analysis of the deposited data

Results flagged for a closer look

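Tetracycline values of opposite sign in the 2 lines marked a pair of genes. The log2 change of MT1F was 1.51 in TR9-MeTA14 and -0.16 in TR15-MeTA5, a difference of 1.67 that was not tested. The log2 change of MT3 was 0.14 and -0.27, a difference of 0.40, also not tested. With spike-in scaling the TR15-MeTA5 values were 0.24 for MT1F and 0.13 for MT3, so neither gene then had opposite signs.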

How the results depend on the processing

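MT1M and MT1G kept their direction with tetracycline in both lines under every alternative that gave a value, MT1M at 2.77 to 7.17 and 3.92 to 7.73 and MT1G at -1.35 to -1.23 and -1.72 to -1.32 on the log2 scale. Spike-in scaling moved the median of all genes in TR15-MeTA5 from -0.16 to 0.24, and turned the TR15-MeTA5 values of MT1E, MT1F, MT3 and SLC30A1 positive; it left 1 gene at least 2-fold lower in TR15-MeTA5 (MT1G, without MT2A), and moved the uninduced median from 0.12 to -0.96 with 5 genes lower there. Requiring every one of the 4 arrays to be well above background leaves out MT1M, so that 1 gene was higher in TR9-MeTA14, 0 in TR15-MeTA5, 0 in both lines and 0 by limma. With a cut-off of 3-fold, 1 gene was higher and 0 were lower in TR9-MeTA14 (10.8% and 6.67% of all genes), 1 was lower in TR15-MeTA5 (0.565%), 0 were lower in both lines (0.115%) and 0 in uninduced TR15-MeTA5 (1.73%). With 1.5-fold, 5 were lower in TR9-MeTA14 (27.1% of all genes), 4 in TR15-MeTA5 (11.3%) and 3 in both (7.06%). Median scaling, and keeping all spots, left 1 gene lower in uninduced TR15-MeTA5 each, since MT1G lay at the cut-off. Without a filter on dim probes limma called 1 probe lower (MT1G). The limma fit sets each +Tet array against the -Tet array of its own line; without that block it again called the MT1M probe alone. No replicate could be left out, as each group has 1 array. The number of arrays limits the precision of every value.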
